A study of Mus musculus with 6 samples.

Results

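The EGR and NR4A transcription factors and the EGR corepressors were followed in mouse T cells given disulfiram. The 8 genes, Egr1, Egr2, Egr3, Nab1, Nab2, Nr4a1, Nr4a2 and Nr4a3, were taken by name from the 55536 genes of the deposited table, in which all 8 were present and all 8 passed the filter on low counts. The cells were primary OT-I T cells from mouse lymph nodes, labelled wildtype, whose transgenic T cell receptor recognises a peptide of ovalbumin. They were kept in complete medium and treated for 2 h with disulfiram (DSF), a thiuram disulfide that inhibits aldehyde dehydrogenases, or with DMSO, its solvent. Each group held 3 libraries labelled as biological replicates. The labels name no separate animals or cultures, no age, no DSF concentration and no stimulation, so p-values measure only the spread between these libraries. The deposited columns carry the codes DF and DO, read here as DSF and DMSO although no label spells this out, and all directions depend on that reading.

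EGR proteins are zinc finger transcription factors, and NR4A proteins are nuclear receptors that act without a known physiological ligand. Both families are immediate early genes, transcribed within minutes of T cell receptor engagement. Egr1 is induced mainly through ERK and serum response factor, and NR4A genes through calcium, MEF2 and CREB as well. NAB1 and NAB2 bind EGR1, EGR2 and EGR3 and repress their activity, and Nab2 is itself an EGR target, which closes a feedback loop. In T cells EGR2 and EGR3 restrain activation and NR4A factors are linked to tolerance and exhaustion, while Nr4a1 is widely used as a reporter of receptor signal strength.

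The libraries held between 18082264 and 20951998 estimated counts in DSF and between 18528236 and 21893720 in DMSO. Levels between libraries are in counts-per-million units (CPM) scaled by TMM, a trimmed mean of the ratios between libraries. The floor of detection, 3 counts, lay at 0.136 to 0.166 CPM and covers counting error only. T cell genes were abundant, with Cd3e at 218 CPM in DSF and 229 CPM in DMSO and Cd8a at 350 CPM in DSF and 411 CPM in DMSO. Cd4 averaged 1.63 CPM in DSF and 1.22 CPM in DMSO. Of 10 T cell markers, 1 was higher and 4 were lower in DSF, and their summed level was 2663 to 2697 CPM in DSF and 2793 to 2834 CPM in DMSO. Of 13 myeloid and dendritic cell markers 9 were tested and 3 were lower, and the summed level of those tested was 39.8 to 42.6 CPM in DSF and 49.5 to 50.2 CPM in DMSO. Of 10 B cell markers 9 were tested, summing to 210.7 to 220.8 CPM in DSF and 228.4 to 236.1 CPM in DMSO, and 1 was lower. That 1 was Ighm, which made up most of the sum, at 175 CPM in DSF and 192 CPM in DMSO. The median log2 fold change of the 9 was 0.03. None of the 5 stromal and endothelial markers tested, of 10 listed, passed, and of the 5 tested CD4 T cell markers 2 were higher and 1 lower. Over all tested genes 11.6% were higher and 11.3% lower. The part of these other cells in the results below was not tested.

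Among the 8 genes, 1 was higher and 4 were lower in DSF than in DMSO. Egr1 was higher, Egr2, Egr3, Nab2 and Nr4a1 were lower, and Nab1, Nr4a2 and Nr4a3 did not pass edgeR's quasi-likelihood test at a Benjamini-Hochberg adjusted p under 0.05 over all 14318 genes tested. The 5 calls make up 62.5% of the 8 genes, where 22.9% of all tested genes were called, 11.6% higher and 11.3% lower. Among the 6253 tested genes whose mean level lay within the range of the 8, from 15.3 to 122 CPM, 30.1% were called. The DSF and DMSO libraries did not overlap in 6 of the 8 genes (75%), against 35.4% of all tested genes and 42.8% of those 6253. The median log2 fold change was -0.14 over the 8 genes and 0 over all tested genes. In bulk RNA, a change in the number of cells that express a gene and a change in its RNA per cell cannot be told apart.

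**Figure D1:**
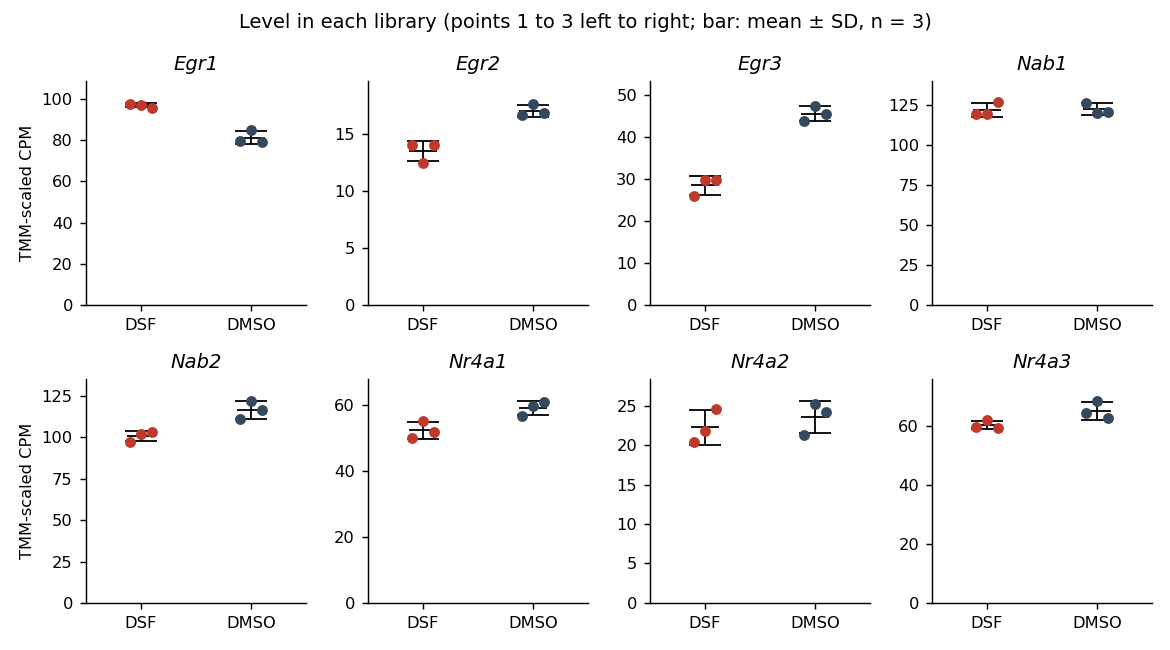
TMM-scaled CPM (vertical axes, each from 0) of the 8 genes in the 3 DSF libraries (red, left) and the 3 DMSO libraries (dark, right), with the mean and SD of each group. Egr1 lies higher in all DSF libraries, at 95.6 to 97.4 CPM against 79.2 to 84.7 CPM in DMSO, and Egr3 lies lower, at 26.0 to 29.9 CPM against 43.9 to 47.5 CPM.

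The sequences just upstream of these genes are shown for Egr2, the 3 NR4A genes and Nab1, because they hold the letters of sites through which the families are known to be regulated, and were picked after the matches were seen. They come from RefSeq on GRCm38.p6, in which 6 of the 8 genes were matched, all but Egr1 and Egr3. The chromosome of Egr1 was left out of the search, so Egr1 could not be matched. Each is the 250 bases before an annotated start, 5′ to 3′ on the gene's own strand, with matches in capitals. The searched letters, on both strands, were TGACG, the core of the cAMP response element, its full form TGACGTCA, which contains that core, the EGR sites GCGTGGGCG and GCGGGGGCG, the NR4A site AAAGGTCA, and the CArG box, the site of serum response factor. The windows lie at chr10:67537619-67537868 (+) for Egr2, the third of 5 annotated starts, chr15:101266596-101266845 (+) for Nr4a1, chr2:57124004-57124253 (-) for Nr4a2, chr4:48045055-48045304 (+) for Nr4a3 and chr1:52500449-52500698 (-) for Nab1.
Egr2: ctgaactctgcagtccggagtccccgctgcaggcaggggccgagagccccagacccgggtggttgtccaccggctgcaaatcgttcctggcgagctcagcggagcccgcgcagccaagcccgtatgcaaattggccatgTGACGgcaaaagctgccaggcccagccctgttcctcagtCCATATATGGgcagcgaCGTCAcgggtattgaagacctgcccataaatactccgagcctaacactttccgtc
Nr4a1: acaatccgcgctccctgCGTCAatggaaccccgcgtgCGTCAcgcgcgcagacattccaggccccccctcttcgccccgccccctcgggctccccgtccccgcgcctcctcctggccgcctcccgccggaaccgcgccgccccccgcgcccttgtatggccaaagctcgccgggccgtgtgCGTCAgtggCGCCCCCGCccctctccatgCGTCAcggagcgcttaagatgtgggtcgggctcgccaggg
Nr4a2: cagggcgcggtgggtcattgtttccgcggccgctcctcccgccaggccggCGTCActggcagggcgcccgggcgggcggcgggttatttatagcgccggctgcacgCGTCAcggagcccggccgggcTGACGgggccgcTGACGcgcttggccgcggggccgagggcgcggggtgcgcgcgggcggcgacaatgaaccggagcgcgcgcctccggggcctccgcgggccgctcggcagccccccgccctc
Nr4a3: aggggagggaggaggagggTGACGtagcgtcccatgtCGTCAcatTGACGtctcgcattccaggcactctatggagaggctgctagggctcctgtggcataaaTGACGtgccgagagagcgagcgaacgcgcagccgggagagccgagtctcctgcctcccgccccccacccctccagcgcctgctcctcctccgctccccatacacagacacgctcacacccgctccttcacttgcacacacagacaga
Nab1: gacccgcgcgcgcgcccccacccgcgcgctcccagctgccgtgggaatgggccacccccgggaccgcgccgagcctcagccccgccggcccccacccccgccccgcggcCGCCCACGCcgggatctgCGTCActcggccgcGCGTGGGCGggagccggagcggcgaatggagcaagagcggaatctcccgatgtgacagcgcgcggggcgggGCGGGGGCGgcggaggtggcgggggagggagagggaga

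The Egr2 window held 1 CArG box, which 1.47% of the 32851 windows searched hold, and 2 TGACG cores. Those 32851 windows, called all windows here, leave out the chromosome of Egr1. The windows of Nr4a1, Nr4a2 and Nr4a3 held 4 TGACG cores each, where 17.8% of all windows hold at least 1, and none of them held the full TGACGTCA, found in 1.55% of all windows. The share of all windows with 4 TGACG cores was not counted. Any part of these letters in the levels of the NR4A genes was not tested. Nab1 held GCGTGGGCG 2 times, a string in 0.536% of all windows, and GCGGGGGCG, in 2.57% of all windows, 1 time, and Nr4a1 held GCGGGGGCG 1 time. The Nab2 window and the first Egr2 window held none of the searched strings, and no window of the 6 genes held AAAGGTCA, found in 1.34% of all windows. A match describes letters, not binding.

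Egr1, an immediate early factor that drives many growth and activation genes, was the only one of the 8 to rise. It stood at 97.4, 97.1 and 95.6 CPM in the DSF libraries, against 79.7, 84.7 and 79.2 CPM in the DMSO libraries. All DSF libraries lay above all DMSO libraries. The fitted change was 1.19-fold, with a 95% interval of 1.12 to 1.27, or a log2 fold change of 0.25 ± 0.05 (SE; edgeR's adjusted p = 8.95e-05, n = 3 per group). Of all tested genes 26.1% had a larger absolute log2 fold change. The gene (ENSMUSG00000038418) lies on chromosome 18 of GRCm38 at 34859823 to 34864984, forward strand, and its exons overlap those of no other gene in the annotation.

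Egr3, which with Egr2 restrains T cell activation and is needed for normal lymphocyte development, showed the largest change of the 8. It stood at 26.0, 29.9 and 29.7 CPM in the DSF libraries, against 43.9, 47.5 and 45.6 CPM in the DMSO libraries. The groups were far apart, with the highest DSF library at 29.9 CPM and the lowest DMSO library at 43.9 CPM. Egr3 fell to 0.626 of its DMSO level, with a 95% interval of 0.574 to 0.682, at a log2 fold change of -0.68 ± 0.06 (SE; edgeR's adjusted p = 2.74e-10, n = 3 per group). In all, 5.22% of tested genes had a larger absolute log2 fold change. The gene (ENSMUSG00000033730) lies on chromosome 14 at 70077203 to 70082614, forward strand, with no exon overlap.

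Egr2, the close partner of Egr3 in T cells, also fell and was the least abundant of the 8 genes. It stood at 14.0, 12.5 and 14.0 CPM in the DSF libraries, against 16.7, 17.6 and 16.8 CPM in the DMSO libraries. The groups did not overlap. Egr2 fell to 0.793 of its DMSO level, with a 95% interval of 0.704 to 0.892, at a log2 fold change of -0.34 ± 0.08 (SE; edgeR's adjusted p = 0.00309, n = 3 per group). The call was lost by limma on log2(TPM + 0.5), at -0.23 (adjusted p = 0.164). Its estimated counts of 244 to 292 per DSF library and 308 to 387 per DMSO library were the smallest of the 8, and its interval was wider than those of Egr1 and Egr3. The gene (ENSMUSG00000037868) lies on chromosome 10 at 67535475 to 67542188, forward strand. Egr4, the remaining family member, had 4, 0 and 3 counts in the DSF libraries and 2, 2 and 1 counts in the DMSO libraries, which is at about the floor of 3 counts, and it was not tested.

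**Figure D2:**
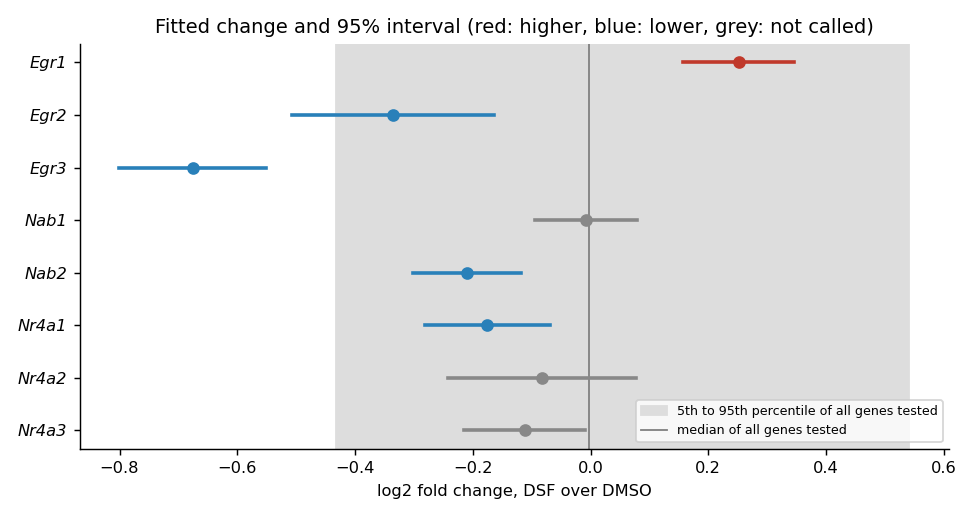
Fitted log2 fold change, DSF over DMSO, of each of the 8 genes (points) with its 95% interval (lines), over the span from the 5th to the 95th percentile of all tested genes, -0.43 to 0.54 (grey band). Egr3, at -0.68, is the only one of the 8 whose estimate lies outside the band, and the intervals of Nab1 and Nr4a2 include 0.

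The summed level of the 3 EGR genes was alike in both groups, while the share held by each differed. On the scale of transcripts-per-million units (TPM), which is per length, Egr1, Egr2 and Egr3 together summed to 56.0, 56.7 and 55.8 TPM in the DSF libraries, against 53.6, 59.8 and 56.9 TPM in the DMSO libraries. The DSF sums lay inside the range of the DMSO sums. Egr1 made up 68.5 ± 0.972% of that sum in DSF and 56.2 ± 0.713% in DMSO (mean ± SD, n = 3 each). Egr3 made up 18.8 ± 0.96% in DSF and 28.8 ± 1.02% in DMSO, and Egr2 12.8 ± 0.133% in DSF and 15.0 ± 0.509% in DMSO. No library of one group reached the range of the other in any of these 3 shares. Taken as estimated counts per deposited length in place of TPM, a scale chosen after the values were known, the share of Egr1 was 73.0 ± 0.981% in DSF and 60.7 ± 0.414% in DMSO.

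**Figure D3:**
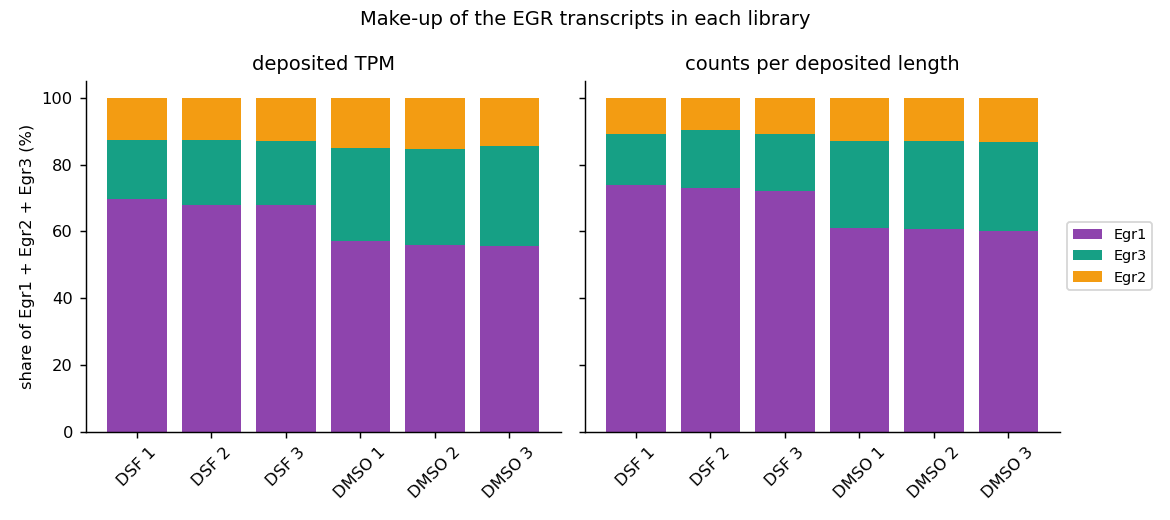
Share in percent of the summed EGR transcript level held by Egr1, Egr3 and Egr2 in each of the 3 DSF and 3 DMSO libraries, from deposited TPM (left) and from counts per deposited length (right). On the TPM scale Egr1 holds 67.8 to 69.6% in DSF and 55.7 to 57.0% in DMSO.

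Ratios of estimated counts within a library do not depend on how libraries are scaled, and 6 such ratios, chosen after the values were seen, were compared with a two-sided exact permutation test. With 3 libraries against 3 that test cannot give a p below 0.1. The ratio of Egr3 to Egr1 counts was 0.267, 0.308 and 0.311 in the DSF libraries, against 0.551, 0.561 and 0.575 in the DMSO libraries, a log2 difference of -0.93 (exact permutation p = 0.1, 0.15 adjusted over the 6 ratios). The ratio of Egr2 to Egr1 counts was 0.14 ± 0.00976 in DSF and 0.21 ± 0.00227 in DMSO, and that of Egr3 to Egr2 counts 2.12 ± 0.272 in DSF and 2.68 ± 0.0409 in DMSO (mean ± SD, n = 3 each). Both had the same exact permutation p of 0.1 (0.15 adjusted), and neither overlapped between the groups. Egr3 was thus lower relative to Egr2, as well as relative to Egr1, in every DSF library than in any DMSO library.

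Of the corepressor genes, Nab2 fell and Nab1 did not pass. Nab2, the inducible corepressor of the pair, stood at 97.3, 101.9 and 103.6 CPM in the DSF libraries, against 111.3, 121.9 and 116.9 CPM in the DMSO libraries. All DSF libraries lay below all DMSO libraries. The fitted ratio was 0.865, with a 95% interval of 0.811 to 0.922, at a log2 fold change of -0.21 ± 0.05 (SE; edgeR's adjusted p = 0.000672, n = 3 per group). By limma on log2(TPM + 0.5) the call was lost, at -0.19 (adjusted p = 0.0821). Nab1 stood at 119.0, 119.2 and 126.7 CPM in the DSF libraries, against 126.4, 119.9 and 120.8 CPM in the DMSO libraries. These overlapped throughout, and the fitted ratio of 0.995 had a 95% interval of 0.937 to 1.06 (edgeR's adjusted p = 0.932). The ratio of Nab2 to Nab1 counts was 0.817, 0.854 and 0.817 in DSF, against 0.88, 1.02 and 0.968 in DMSO, without overlap (exact permutation p = 0.1, 0.15 adjusted over the 6 ratios).

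Nab2 (ENSMUSG00000025402) lies on chromosome 10 at 127660918 to 127668568, reverse strand, and its exons overlap 3 genes of the opposite strand. It shares 1050 exon bases (35.7%) with the predicted antisense gene Gm16229, 151 with Nemp1 and 40 with Stat6. The sources used here do not say whether strand entered the counting, so reads in these stretches are uncertain. Gm16229 averaged 0.958 CPM in DSF and 1.28 CPM in DMSO, Nemp1 37.4 CPM in DSF and 38.7 CPM in DMSO, and Stat6 154 CPM in DSF and 161 CPM in DMSO. None of these 3 passed edgeR's test (adjusted p = 0.374, adjusted p = 0.606 and adjusted p = 0.313). Nab1 (ENSMUSG00000002881) lies on chromosome 1 at 52457294 to 52500679, reverse strand, with no exon overlap.

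Of the NR4A genes, Nr4a1 fell and Nr4a2 and Nr4a3 did not pass. Nr4a1, which encodes NUR77, stood at 49.9, 55.1 and 51.9 CPM in the DSF libraries, against 56.7, 59.7 and 60.8 CPM in the DMSO libraries. The groups did not overlap, but the highest DSF library, at 55.1 CPM, lay close to the lowest DMSO library, at 56.7 CPM. The fitted ratio was 0.885, with a 95% interval of 0.823 to 0.953 (edgeR's adjusted p = 0.0125, n = 3 per group). The call was not stable, with an adjusted p of 0.107 without DSF library 1, 0.0541 without DMSO library 2 and 0.054 without DMSO library 3 by edgeR, 0.0531 by DESeq2 and 0.209 by limma on log2(TPM + 0.5). The gene (ENSMUSG00000023034) lies on chromosome 15 at 101254269 to 101274795, forward strand.

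Nr4a3, which encodes NOR1, stood at 59.8, 62.2 and 59.6 CPM in the DSF libraries, against 64.4, 68.8 and 62.9 CPM in the DMSO libraries. The libraries did not overlap, although the highest in DSF, at 62.2 CPM, lay close to the lowest in DMSO, at 62.9 CPM, and the gene did not pass edgeR's test (ratio 0.926, 95% interval 0.862 to 0.994, adjusted p = 0.116). The interval is for the single gene and leaves out 1, while the adjusted p takes in all 14318 tests. Nr4a2, which encodes NURR1, stood at 20.3, 21.8 and 24.6 CPM in the DSF libraries, against 21.3, 25.2 and 24.1 CPM in the DMSO libraries, with wide overlap. Its ratio of 0.945 had a 95% interval of 0.846 to 1.06 (edgeR's adjusted p = 0.526). Between the NR4A genes, the ratio of Nr4a1 to Nr4a3 counts was 0.864 ± 0.0265 in DSF and 0.905 ± 0.054 in DMSO and that of Nr4a2 to Nr4a3 counts 0.368 ± 0.0396 in DSF and 0.36 ± 0.0266 in DMSO (mean ± SD, n = 3 each; exact permutation p = 0.5 and p = 0.8, 0.6 and 0.8 adjusted). Nr4a3 (ENSMUSG00000028341) lies on chromosome 4 at 48045153 to 48086447, forward strand, and Nr4a2 (ENSMUSG00000026826) on chromosome 2 at 57106830 to 57124003, reverse strand.

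The deposited TPM of Nr4a2 did not follow its counts in library 2 of either group. It was 8.38, 22.2 and 9.63 TPM in the DSF libraries, against 8.21, 21.0 and 9.52 TPM in the DMSO libraries, while the estimated counts were 367, 426 and 513 in DSF and 394, 554 and 488 in DMSO. TPM divides a count by the length of the transcripts it is assigned to, so the number of counts behind 1 TPM shows the length that was used. Scaled to the median gene of each library, that number was 1.35, 0.545 and 1.41 for Nr4a2 in DSF and 1.39, 0.653 and 1.4 in DMSO. It differed between libraries by 2.58 times, against 1.01 to 1.18 times in the other 7 genes and a median of 1.08 times over 12116 genes with at least 20 counts in every library, of which 7.07% exceeded 1.5 times. As length-scaled counts, which divide the estimated count by the 1 deposited length and are then scaled within a library as TPM is, Nr4a2 ran from 11.5 to 13.8 in DSF and from 11.8 to 14.0 in DMSO. The annotation lists 6 transcripts of Nr4a2.

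**Figure D4:**
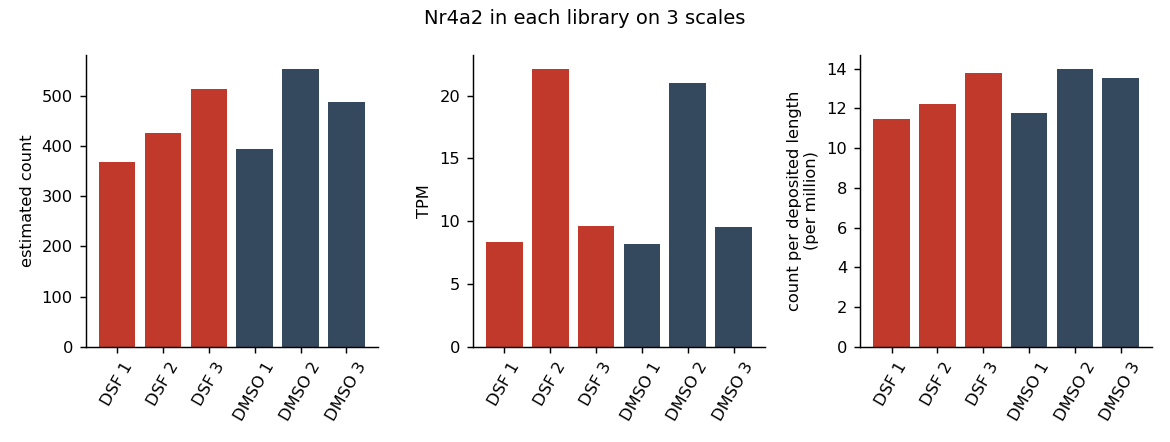
Nr4a2 in each DSF library (red) and DMSO library (dark), as estimated counts (left), deposited TPM (middle) and length-scaled counts (right). On the TPM scale library 2 stands at 22.2 TPM in DSF, against 8.38 and 9.63 TPM in the other DSF libraries, and at 21.0 TPM in DMSO, against 8.21 and 9.52 TPM in the other DMSO libraries, and on the other scales it does not stand apart.

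On the TPM scale the corepressor genes were the most abundant of the 8. Nab2 averaged 60.1 ± 0.379 TPM in DSF and 68.5 ± 4.69 TPM in DMSO, and Nab1 43.6 ± 2.15 TPM in DSF and 42.2 ± 0.754 TPM in DMSO (mean ± SD, n = 3 each). In DSF Egr1 followed at 38.5 ± 0.564 TPM and then Nr4a1 at 30.4 ± 1.47 TPM, with no overlap between their libraries. In DMSO the order of that pair could not be told, since Egr1 at 30.6 to 33.4 TPM and Nr4a1 at 31.3 to 35.3 TPM overlapped. By length-scaled counts Egr1 lay above Nr4a1 in both groups, averaging 61.1 and 40.5 in DSF and 50.9 and 45.4 in DMSO, so this order depends on the length used. On that scale Egr1 in DSF also overlapped Nab1, which averaged 60.3. Egr3 averaged 10.5 ± 0.58 TPM in DSF and 16.4 ± 1.25 TPM in DMSO. Nr4a3, at 14.8 ± 0.378 TPM, lay above Egr3 in every DSF library, whereas in DMSO Nr4a3, at 15.8 ± 0.652 TPM, and Egr3 overlapped. By length-scaled counts Nr4a3 lay above Egr3 in DMSO too, at 23.8 to 25.8 against 21.0 to 22.9. The overlap in DMSO thus depends on the length used. Egr2 averaged 7.17 ± 0.03 TPM in DSF, the lowest of the 8, and 8.5 ± 0.608 TPM in DMSO, where it overlapped Nr4a2. Nr4a2 averaged 13.4 ± 7.62 TPM in DSF and 12.9 ± 7.03 TPM in DMSO. On the TPM scale it could not be placed against Egr3 or Nr4a3, because of library 2 of each group. By length-scaled counts Nr4a2, at 11.5 to 13.8 in DSF and 11.8 to 14.0 in DMSO, lay below Nr4a3 in both groups. Nr4a2 also lay below Egr3 in DMSO by length-scaled counts, but overlapped Egr3 in DSF, where Egr3 ran from 12.7 to 14.5.

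Of genes upstream of the families, some were higher, some lower, and many did not pass. In the Ras-ERK cascade, which carries the receptor signal to EGR genes, 9 of 19 tested genes were higher and 3 lower, with a median log2 fold change of 0.1. The 12 called make up 63.2% of that list, while the shares called in the lists of serum response factor, MEF2 and CREB, at 33.3%, 37.5% and 37.5%, lay nearer to the 22.9% of all tested genes and the 30.1% of genes in the level range of the 8. They included Spred2, an inhibitor of the cascade, at 67.7 CPM in DSF and 53.4 CPM in DMSO, and the scaffold gene Ksr1, which fell to 39.8 CPM in DSF, against 47.5 CPM in DMSO. Among 6 genes of serum response factor and its partners, Elk4, a ternary complex factor, was higher at 102 CPM in DSF and 85.8 CPM in DMSO, and Srf itself was lower at 46.7 CPM in DSF and 52.6 CPM in DMSO (edgeR's adjusted p = 5.53e-05 and adjusted p = 0.0431). Of 8 tested MEF2 and class IIa HDAC genes, 3 were higher and 0 lower, led by Mef2d, an activator of Nr4a1 transcription, at 225 CPM in DSF and 186 CPM in DMSO. Cabin1, a repressor of MEF2, and Mef2a were the other two. Of 8 CREB factors and coactivators, the histone acetyltransferase genes Ep300 and Crebbp were higher and Crem was lower. Ep300 stood at 306 CPM in DSF and 249 CPM in DMSO, and Crem at 94.5 CPM in DSF and 115 CPM in DMSO. Of the RXR genes, whose proteins pair with NUR77 and NURR1, Rxra fell to 1.4 CPM in DSF, against 2.89 CPM in DMSO, and Rxrb did not pass. Of the 9 myeloid and dendritic cell markers tested, 3 were lower in the same libraries (Xcr1, Mpeg1 and Clec10a) and the others did not pass. Their part in the change of the scarce Rxra was not tested.

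Among other immediate early genes, more were higher than lower. Of 30 tested, 14 were higher and 5 lower in DSF, with a median log2 fold change of 0.16. The share called was 63.3%, where 22.9% of all tested genes were called, 11.6% higher and 11.3% lower. Klf4, a Krüppel-like factor gene, rose to 39.5 CPM in DSF, against 4.66 CPM in DMSO, Klf6 to 495 CPM against 211 CPM in DMSO, and Atf3 to 71.3 CPM against 27.1 CPM in DMSO. Among those outside the naming rule, chosen after their values were seen, the AP-1 gene Fos rose to 22.9 CPM in DSF, against 11.5 CPM in DMSO, and Jun, at 104 CPM in DSF and 102 CPM in DMSO, did not pass. The log2 fold changes of Klf4, Klf6 and Atf3 were 3.08, 1.23 and 1.39, each above the 0.25 of Egr1.

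Of the T cell genes linked to EGR2 and EGR3, 20 were tested, of which 9 were lower and 3 higher, at a median log2 fold change of -0.12. The share called was 60%, against 22.9% of all tested genes, 11.3% lower and 11.6% higher. Id2, a regulator of effector differentiation, stood at 65.5 CPM in DSF and 98.7 CPM in DMSO. The ubiquitin ligase gene Cblb, which raises the activation threshold, stood at 350 CPM in DSF and 445 CPM in DMSO, and Tnfsf10, the gene for TRAIL, at 27.9 CPM in DSF and 38.6 CPM in DMSO. Of 18 tested genes linked to NR4A factors in T cells, 8 were lower and 0 higher, at a median of -0.14. Here the share called was 44.4%. Among genes in the level range of the 8, 30.1% were called. Pdcd1, the gene for PD-1, stood at 51.4 CPM in DSF and 91.2 CPM in DMSO, and Il7r, a receptor for interleukin 7, at 160 CPM in DSF and 215 CPM in DMSO. The NR4A list shares Lag3 with the EGR list, Irf4 with the other immediate early genes, and Ikzf2 and Foxp3 with the CD4 T cell markers. Of these, Irf4 and Ikzf2 were lower and so count in 2 lists each. Which genes are linked to a factor was taken from general knowledge, not from these cells. Of the 10 T cell markers 4 were also lower, and their part in these counts was not tested.

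**Figure D5:**
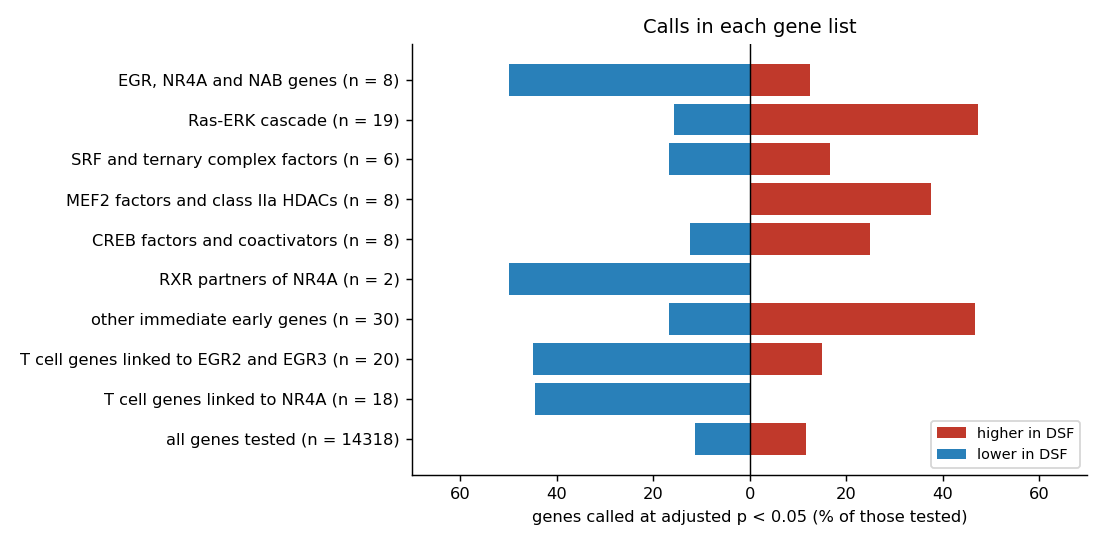
Share in percent of the tested genes of each list called higher (red, to the right) or lower (blue, to the left) in DSF by edgeR at an adjusted p under 0.05, with the number tested in brackets. Over all 14318 genes 11.6% were higher and 11.3% lower. Of the 8 genes described here 1 was higher and 4 were lower, and of the 30 other immediate early genes 14 were higher and 5 lower.

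The genes whose levels ran most like Egr3 over the 6 libraries were Pisd, Nepro and Trac, with Pearson correlations of log2 CPM of 0.999, 0.9986 and 0.9976 among 9616 genes searched. For Nab2, the most abundant of the 8 by TPM, they were Abcf1, Actr1b and Hip1r, at 0.9973, 0.9943 and 0.9937. All 6 were lower in DSF, and with 6 libraries in groups of 3 such correlations take in the difference between the groups, as a description only.

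Another group, coded DC, which the labels do not explain, appears in the authors' deposited table as comparisons only, and its libraries were not analysed here. In the authors' deposited table Egr3 had a log2 fold change of -0.67 for DF over DO (adjusted p = 2.744e-14), -0.03 for DC over DO (adjusted p = 0.9999) and 0.64 for DC over DF (adjusted p = 7.565e-13). For Egr1 the authors' deposited table gives 0.25 for DF over DO, 0.12 for DC over DO and -0.14 for DC over DF (adjusted p = 3.357e-05, 0.6797 and 0.0537). For Nab2 the authors' deposited table gives -0.21 for DF over DO, -0.03 for DC over DO and 0.17 for DC over DF (adjusted p = 0.0007872, 0.9999 and 0.004026). For Nr4a3 the authors' deposited table gives -0.11 for DF over DO, 0.1 for DC over DO and 0.2 for DC over DF (adjusted p = 0.2727, 0.9999 and 0.006913). In the authors' deposited table Egr2, Nab1, Nr4a1 and Nr4a2 did not pass for DC over DF (adjusted p = 0.08995, 0.9603, 0.1364 and 0.4045). For DF over DO the authors' adjusted p of these genes was 0.03503, 0.9691, 0.05561 and 0.7512. Each pair of these comparisons shares a group of libraries, so they do not bear on each other independently.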

How the data were processed

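Per the labels' protocols, a SMARTER mRNA kit turned 1 µg of total RNA into each library. Genome build GRCm38 (mm10) is named by the submitters' processing notes. No aligner, counting program, annotation release or strand setting is named in the sources used. The deposited table holds estimated counts, which the authors did not normalise, with 12.1 to 12.9% of a library's values not whole, and TPM per library, per the file headers. The authors also deposited fold ratios, log2 fold changes and p-values, under file titles that name DESeq2. In all 55536 genes the deposited DO and DF means matched the means of the A and the B columns within 0.0001 TPM, and column numbers were taken as replicate numbers.

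Counts were rounded and filtered with filterByExpr, leaving 14318 genes, then scaled by TMM. The model was edgeR 4.0.16's robust quasi-likelihood fit (R 4.3.3) with the group alone. A standard error is the absolute log2 fold change divided by the root of F, and 95% intervals use the t quantile. Alternatives used other scalings, no filter, DESeq2 1.42.0, limma 3.58.1 on log2(TPM + 0.5) and log2(TPM + 0.1), a replicate block and each library left out. Gene positions are those of GENCODE M21. The named genes are the 8 genes and Egr4, plus at most the 3 called genes with the smallest p of each related list, and for Egr3 and Nab2 the 3 best correlated genes of at least 5 CPM. Some genes the rule names are not reported here. The genes and lists were chosen with earlier results of these data known.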

Additional observations from a re-analysis of the deposited data

How the results depend on the processing

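Egr1 stayed higher and Egr3 lower, past the threshold, under every alternative run. Nr4a1 lost its call by DESeq2 (-0.17) and by limma on TPM (-0.16 with either pseudocount), and Egr2 (-0.23 and -0.24) and Nab2 (-0.19 with both) lost theirs by limma on log2(TPM + 0.5) and log2(TPM + 0.1), which left 1 of the 8 genes lower and called 809 and 805 genes higher and 538 and 533 lower over all genes, against 1655 and 1621. Nr4a2 (0.04) and Nab1 (0.05) turned upward there without passing, and TPM gave Nr4a2 a ratio of 1.04, with library 2 of each group standing apart on that scale; otherwise the cause was not tested. Leaving out each library in turn gave log2 fold changes of 0.23 to 0.28 for Egr1, -0.36 to -0.28 for Egr2, -0.71 to -0.61 for Egr3, -0.24 to -0.18 for Nab2, -0.21 to -0.14 for Nr4a1, -0.16 to -0.02 for Nr4a2, -0.14 to -0.07 for Nr4a3 and -0.04 to 0.02 for Nab1, with 3 to 4 of the 8 called lower. Replicates with the same number did not deviate together (correlations of -0.037, -0.024 and -0.055 over 10210 genes), and none of the 3 DSF libraries correlated best with its own number. The replicate block called 1925 genes higher and 1904 lower and changed no call among the 8 genes. Nr4a3 passed under none of the alternatives run, with an adjusted p of 0.0666 to 0.445 when single libraries were left out, 0.0626 with the replicate block and 0.261 by DESeq2.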
